A study of Arabidopsis thaliana with 12 samples.

Results

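Small RNA reads assigned to the genes of the chloroplast genome were followed in Arabidopsis thaliana plants that lack cytoplasmic RNA decay factors, the polymerase RDR6, or both. The set was taken by identifier and comprised every gene of the deposited table whose identifier starts with ATCG, 133 of 30926 genes. RNA under 200 nt was sequenced from the aerial tissue of 18-day-old plants in 12 libraries, with 3 libraries for each of 4 genotypes. Col-0 was the wild type. The double mutant carried the alleles ein5-1 and ski2-3, the single mutant carried rdr6-11, and the triple mutant carried rdr6-11, ein5-1 and ski2-3 together. EIN5 (XRN4) is the exonuclease of the cytosol that removes decapped RNA starting at the 5′ end. SKI2 is a helicase that feeds RNA to the cytosolic exosome, which works from the 3′ end, and RDR6 copies RNA into double strands from which secondary siRNAs are cut. All mutations were present in the whole plant, and the labels do not say how many plants went into a library. Reads of the mutated genes themselves never exceeded 7 counts per library, too few to check the genotypes from these reads.

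The chloroplast genome is the remnant of a bacterial genome. It encodes the ribosomal and transfer RNAs of the organelle, some of its ribosomal proteins, a bacterial-type RNA polymerase and core subunits of the photosynthetic complexes. Its transcripts are made, cut and degraded inside the organelle by proteins that the nucleus encodes, whereas EIN5 and SKI2 act in the cytosol. Processing and degradation fragments of chloroplast RNA are a well-known component of small RNA libraries from green tissue.

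None of the 133 identifiers was paired with a gene name in the RefSeq gene table used here, and RefSeq notes on related nuclear genes describe 6 of them. These are ATCG00670 (plastid-encoded CLP P, the proteolytic subunit of the chloroplast Clp protease), ATCG00660, ATCG00750 and ATCG01310 (ribosomal proteins L20, S11 and L2), ATCG00530 (a CemA-like proton extrusion protein) and ATCG00430 (noted as photosystem II reaction center protein G). The other genes are given by identifier. No gene length was tied to an identifier either, so counts are compared between genotypes within a gene and not between genes as levels of expression.

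Total counts per library lay between 2358724 and 2909767, with a median of 2667145. Counts assigned to chloroplast genes lay between 444019 and 612880 per library. No chloroplast gene had 0 counts in any library. The mean count of a chloroplast gene ranged from 3.67 to 135687.5, with a median of 95.7; 7 genes were under 10 counts, 60 between 10 and 100, 51 between 100 and 1000, and 15 at 1000 or more. The filter on low counts kept 129 of the 133 genes, and ATCG00065, ATCG00390, ATCG00760 and ATCG01120 were not tested. The first and second double mutant libraries agreed within sampling noise over protein-coding genes, with a mean chi-square per gene of 1.00, and stood at 2.08 over the chloroplast genes, above that noise. Both were the lowest values of any pair within a genotype, although Col-0 replicates 2 and 3 came close over protein-coding genes (1.04, and 8.74 over the chloroplast genes). The first and second double mutant libraries were counted as 1 sample, so n was 2 for ein5-1 ski2-3 and 3 for each of the other genotypes.

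The pool was dominated by few genes. The 10 genes with the most counts were, in descending order, ATCG00960, ATCG00950, ATCG01180, ATCG01210, ATCG00920, ATCG01160, ATCG00020, ATCG00970, ATCG01170 and ATCG00490. They held between 92.6% and 95.1% of the chloroplast counts of every library, and the first 5 alone held between 83.7% and 88.5%. The other 123 genes shared the remaining 4.86% to 7.41%.

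The chloroplast share of the library was lowest in the double mutant. Chloroplast genes held 21.8%, 22.2% and 22.3% of the counts of the Col-0 libraries, from lowest to highest. The double mutant libraries had 17.6%, 17.7% and 17.8%. The rdr6-11 libraries had 20.2%, 20.3% and 20.7%. Those of the triple mutant had 21.5%, 21.5% and 21.8%. The double mutant and rdr6-11 lay below every Col-0 library, and the triple mutant lay above both of these mutants. In bulk tissue, fewer cells with chloroplasts and less chloroplast RNA per cell cannot be told apart, and a share also moves with every other class of RNA in the library.

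The mean share was 22.1% ± 0.285 (SD, n = 3) in Col-0 and 17.7% ± 0.0176 (SD, n = 2) in the double mutant, a difference of -4.40 percentage points (exact permutation test, 2-sided, p = 0.2). It was 20.4% ± 0.220 (SD, n = 3) in rdr6-11, a difference of -1.67 points from Col-0 (exact permutation test, 2-sided, p = 0.1). The triple mutant averaged 21.6% ± 0.140 (SD, n = 3), which was 1.18 points above rdr6-11 (exact permutation test, 2-sided, p = 0.1) and 3.91 points above the double mutant (exact permutation test, 2-sided, p = 0.2). Groups of 3 against 3 cannot give a p below 0.1, nor 2 against 3 a p below 0.2, so each of these was the smallest possible at its group sizes. The group of 2 is a choice made here, from counting double mutant replicates 1 and 2 as 1 sample, and not part of the series' design of 3 libraries per genotype. Its SD is thus between the sum of those replicates and replicate 3. The 3 libraries lay between 17.61% and 17.79%, a wider spread than this SD shows. The adjusted p was 0.2 in all 16 tests of shares (4 sets of genes in 4 comparisons), with no overlap between the groups in any of them.

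The fall in share came from the genes with the most counts. The 10 highest genes held 21.0% of the Col-0 library and 16.4% of the double mutant library on average. The sum of the other 123 genes moved the opposite way, from 1.10% ± 0.0161 (SD, n = 3) in Col-0 to 1.27% ± 0.0592 (SD, n = 2) in the double mutant and 1.23% ± 0.0228 (SD, n = 3) in rdr6-11, and was at 1.08% ± 0.00830 (SD, n = 3) in the triple mutant. The sum does not describe most of these genes. With library totals, 46 of the 119 tested were lower in the double mutant than in Col-0 (3.53% of all genes) and 17 higher (61.6% of all genes). Their median log2 change was -0.29. ATCG00090 alone went from 0.131% of the library in Col-0 to 0.255% in the double mutant. As a part of the chloroplast counts these 123 genes held 4.86% to 5.07% in Col-0, 6.89% to 7.41% in the double mutant, 4.94% to 5.07% in the triple mutant and 5.86% to 6.18% in rdr6-11. Col-0 and the triple mutant overlapped in this measure, and the double mutant and rdr6-11 each lay above both.

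**Figure D1:**
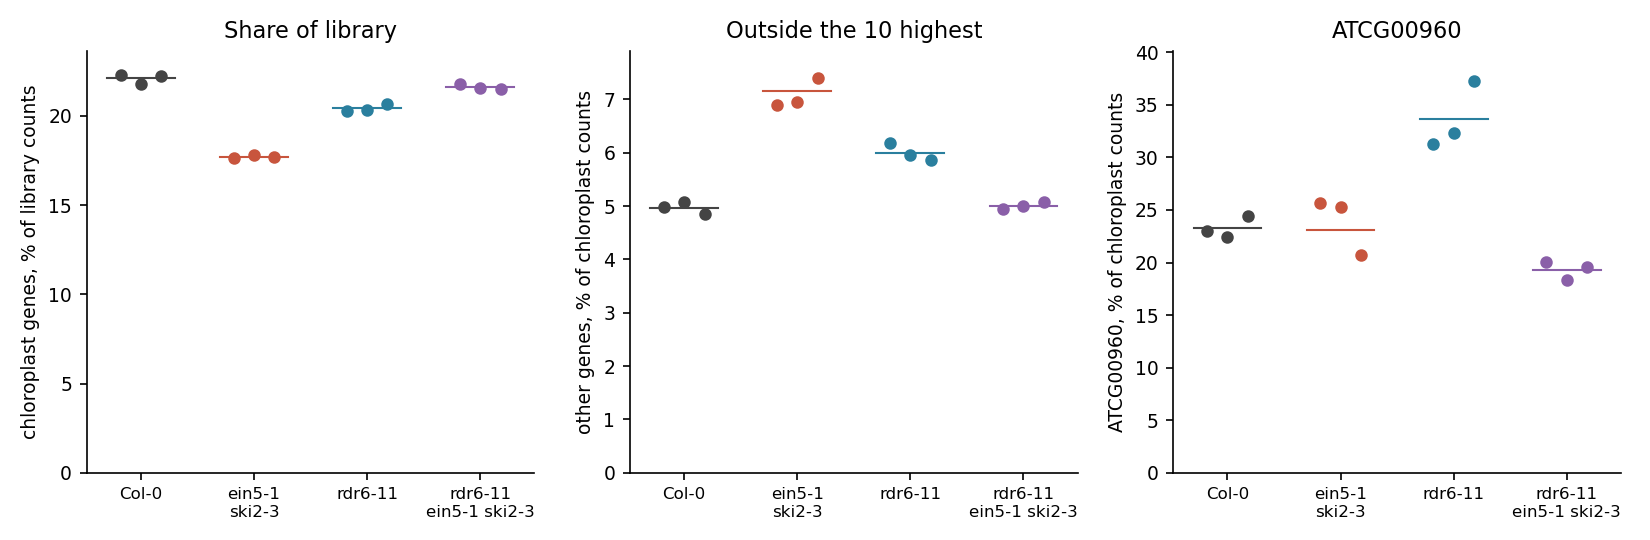
Each point is 1 library, in the order of replicates 1 to 3, and each line the group mean, with double mutant replicates 1 and 2 counted as 1 sample. The left axis gives chloroplast genes as a percentage of library counts, the middle axis the 123 genes outside the 10 highest as a percentage of chloroplast counts, and the right axis ATCG00960 as a percentage of chloroplast counts. The double mutant sits lowest on the left (17.6% to 17.8%) and highest in the middle (6.89% to 7.41%), and rdr6-11 sits highest on the right.

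Other classes of RNA moved between the same libraries. Reads of nuclear protein-coding genes made up 6.36% to 6.46% of the counts in Col-0, 10.7% to 11.7% in the double mutant, 7.41% to 7.50% in the triple mutant and 6.68% to 6.72% in rdr6-11. Nuclear rRNA genes held 55.2% to 55.9%, 50.8% to 53.9%, 55.7% to 56.6% and 52.4% to 54.0% in the same order. With nuclear rRNA left out of the denominator, the chloroplast share was 49.37% to 49.97% in Col-0, 35.8% to 38.3% in the double mutant, 49.0% to 49.5% in the triple mutant and 43.5% to 44.3% in rdr6-11. On that basis Col-0 and the triple mutant overlapped, and the double mutant and rdr6-11 lay below both.

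ATCG00960 was the gene with the most counts, and its part of the pool was largest in rdr6-11. It held 23.02%, 22.46% and 24.41% of the chloroplast counts in Col-0 replicates 1, 2 and 3. The values were 25.7%, 25.3% and 20.7% in the double mutant, 20.1%, 18.3% and 19.6% in the triple mutant, and 31.3%, 32.3% and 37.3% in rdr6-11. All rdr6-11 libraries lay above all other libraries, all triple mutant libraries lay below all others, and Col-0 and the double mutant overlapped.

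By the mean over the chloroplast genes, replicate 3 of the double mutant and replicate 3 of rdr6-11 stood apart from their partners. Over these genes the mean chi-square per gene was 26.1 and 29.3 between replicate 3 of the double mutant and its partners, and 28.3 and 37.6 between replicate 3 of rdr6-11 and its partners. The other pairs lay between 2.08 and 8.74. The median gene hardly showed this. Median chi-squares were 0.571 and 0.748 for replicate 3 of the double mutant, 0.691 and 0.932 for replicate 3 of rdr6-11, and 0.564 to 0.794 for the other pairs. Replicate 3 of the double mutant also departed over protein-coding genes (means of 2.27 and 2.36, against 1.00 between its partners). ATCG00960 was low in replicate 3 of the double mutant and high in replicate 3 of rdr6-11. Without replicate 3 of rdr6-11, the rdr6-11 values of ATCG00960 still lay above every library of the other genotypes.

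ATCG00960 also shaped the share of the whole set. Without its counts, chloroplast genes held 16.8% to 17.2% of the library in Col-0, 13.1% to 14.0% in the double mutant, 17.3% to 17.6% in the triple mutant and 13.0% to 13.9% in rdr6-11. Measured in this way the double mutant and rdr6-11 overlapped, with means of 13.6% ± 0.582 (SD, n = 2) and 13.5% ± 0.512 (SD, n = 3). Both lay below Col-0, by -3.34 points (exact permutation test, 2-sided, p = 0.2) and -3.40 points (exact permutation test, 2-sided, p = 0.1).

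Pairs of chloroplast genes had near-identical counts in every library. There were 10 such pairs with profiles that differed by at most 3% of their summed counts, of which 8 differed by at most 3 counts over all 12 libraries and 4 were identical. They comprised ATCG00830 with ATCG01310, ATCG00840 with ATCG01300, ATCG00850 with ATCG01290, ATCG00860 with ATCG01280, ATCG00870 with ATCG01270, ATCG00890 with ATCG01250, ATCG00900 with ATCG01240, ATCG00905 with ATCG01230, ATCG00920 with ATCG01210 and ATCG00930 with ATCG01200. The partners run in opposite order of identifier. Most chloroplast genomes of land plants carry an inverted repeat whose genes are present in a second copy, and the ribosomal protein L2 gene, here ATCG01310, is listed 2 times in RefSeq. Reads of such a pair cannot be assigned to a copy. Both members of a pair stand in the counts of genes below, and one is named for both except where both are listed. The same order of identifiers would also pair ATCG00940 with ATCG01190, ATCG00950 with ATCG01180, ATCG00960 with ATCG01170, ATCG00970 with ATCG01160 and ATCG00980 with ATCG01150. These differed by more than 3% (mean counts of 135687.5 for ATCG00960 and 7195.92 for ATCG01170) and were kept as separate genes. Whether they are copies that share reads was not tested, because no position was tied to an identifier. A further 4 genes matched a gene outside the chloroplast genome to within 5% (ATCG00240, ATCG00250, ATCG00610 and ATCG01030), so their reads cannot be assigned to a genome.

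Changes of single genes depended on what a library was scaled to, so each comparison is given under 3 scalings. TMM scaling is computed on the genes that passed the low-count filter and assumes that most of them are level. Scaling to library totals keeps shares of the library, and scaling to chloroplast totals shows changes within the set. A gene was called at an edgeR quasi-likelihood adjusted p under 0.05 over the 7219 genes tested. Shares and medians over all genes describe only genes that passed the low-count filter. Pairs of Col-0 libraries had 3201 to 3471 genes with distinct profiles and at least 20 summed counts. Double mutant pairs had 6302 to 6507, rdr6-11 pairs 4471 to 4588 and triple mutant pairs 4462 to 4539. The set tested can thus hold genes counted mainly in the mutants, which would tilt these shares and medians toward higher than Col-0. TMM factors rest on the same genes and ranged from 0.756 in Col-0 replicate 1 to 1.42 in the summed double mutant sample. Without the filter, 46 in place of 71 chloroplast genes were lower in rdr6-11 than in Col-0 under TMM scaling. The size of this tilt was not tested. The scalings shift all genes of a comparison by about the same amount, and a gene called in 1 direction under all of them moved against both the library and the rest of its set.

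Losing EIN5 and SKI2 lowered most chloroplast genes relative to the other genes tested. Under TMM scaling 107 of the 129 tested genes were lower in the double mutant than in Col-0 (18.8% of all genes tested were lower) and 5 were higher (30.5% of all genes). The median log2 change was -1.11, against 0.29 over all genes tested, with the limit of that set given above. Other abundant structural RNA was lower as well under TMM scaling: 468 of 568 nuclear tRNA genes fell and 0 rose, with a median of -0.87, and all 4 nuclear rRNA genes fell, with a median of -0.74. The difference between these classes and the chloroplast genes was not tested. With library totals 52 were lower (3.53% of all genes) and 18 higher (61.6% of all genes), and the median was -0.30. Within the chloroplast set 12 were lower (0.679% of all genes) and 31 higher (75.7% of all genes), around a median of 0.02. Leaving ATCG00960 out of the chloroplast total gave 14 lower (0.665% of all genes) and 32 higher (75% of all genes).

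The genes called under all 3 scalings were few in the double mutant. There were 5 higher (30.5% of all genes met this rule) and 12 lower (0.679% of all genes). The 5 higher genes were ATCG00700 and the near-identical pairs of ATCG00840 with ATCG01300 and ATCG00870 with ATCG01270; the latter pair passed narrowly under TMM scaling (edgeR adjusted p = 0.0452 and 0.047). The count of higher genes under TMM scaling, 5 in all, was 3 without any 1 of most libraries, with RLE size factors or with DESeq2. ATCG00840 rose most: Col-0 libraries had 362, 322 and 339 counts, and those of the double mutant had 971, 943 and 1242. Per 100000 chloroplast counts that was 59.2 ± 3.47 (SD, n = 3) and 227 ± 20.8 (SD, n = 2). The log2 change of ATCG00840 was 0.82 ± 0.11 (SE) under TMM scaling (edgeR adjusted p = 1.47e-08) and 1.94 ± 0.10 within the chloroplast set (edgeR adjusted p = 5.17e-18). Without replicate 3 of the double mutant, which leaves 1 sample in that group, the TMM log2 change of ATCG00840 was 0.40. All double mutant libraries exceeded all Col-0 libraries.

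ATCG00700 behaved alike at lower counts, with 90, 68 and 77 in Col-0 and 190, 226 and 229 in the double mutant. Its log2 change was 0.61 ± 0.14 (SE) under TMM scaling (edgeR adjusted p = 0.000363) and 1.74 ± 0.14 within the set (edgeR adjusted p = 5.88e-13). Without replicate 3 of the double mutant the TMM log2 change of ATCG00700 was 0.32. That fit leaves 1 double mutant sample, so no call is drawn from it.

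ATCG00110 fell, from counts of 149, 158 and 137 in Col-0 to 86, 89 and 87 in the double mutant. The log2 change was -1.62 ± 0.15 (SE) under TMM scaling (edgeR adjusted p = 1.01e-13) and -0.49 ± 0.15 within the set (edgeR adjusted p = 0.00376). ATCG01260 went from 229, 189 and 253 to 139, 127 and 145, with a log2 change of -1.55 ± 0.13 under TMM scaling (edgeR adjusted p = 7.78e-15) and -0.42 ± 0.13 within the set (edgeR adjusted p = 0.00339). Neither gene overlapped between the genotypes in counts.

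Among the 10 highest genes, 9 were lower in the double mutant under TMM scaling (18.8% of all genes tested were lower). The exception, ATCG01170, had a log2 change of -0.16 (edgeR adjusted p = 0.105). This was not particular to the 10 genes, whose median was -1.16. Of the other 119 chloroplast genes tested 98 were lower, with a median of -1.10. Counted as separate genes, the 10 parted ways within the set. ATCG01170 rose by 0.97 ± 0.06 on the log2 scale (edgeR adjusted p = 2.72e-16), from 0.994%, 0.995% and 1.03% of the chloroplast counts in Col-0 to 1.93%, 1.95% and 1.99% in the double mutant. ATCG00970, ATCG01160 and ATCG00020 also rose within the set, by 0.42, 0.38 and 0.29. ATCG00490 fell by 0.27, and ATCG01180 and ATCG00950 fell by 0.12 and 0.10. ATCG00960, ATCG00920 and ATCG01210 were not called within the set, at -0.01, -0.07 and -0.06.

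The authors' deposited table gives its own test of this comparison. It lists 99 of the 133 chloroplast genes as lower in the double mutant than in Col-0 (3.41% of all genes it tests) and 3 as higher (4.65% of all genes it tests).

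**Figure D2:**
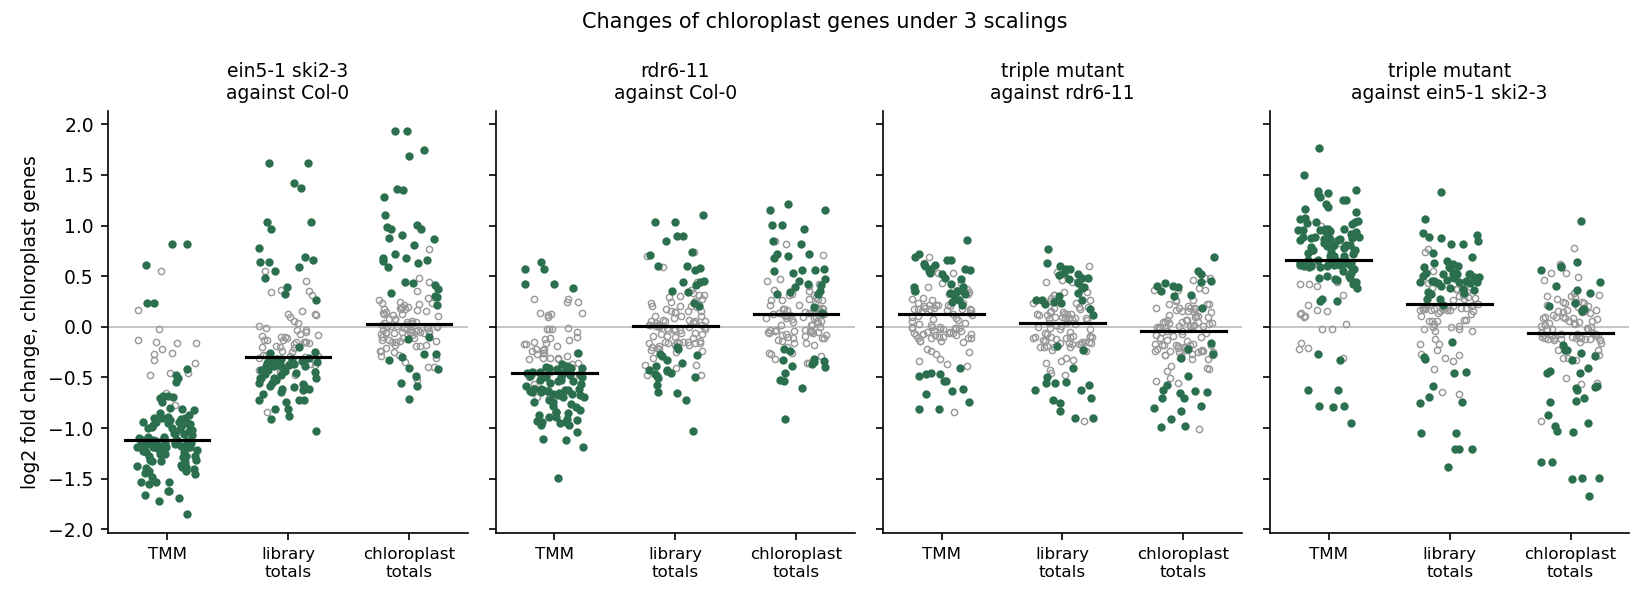
Each point is 1 of the 129 tested chloroplast genes, with its log2 fold change on the vertical axis. The panels are the 4 comparisons, the columns within a panel the 3 scalings, filled points are called genes and bars are medians. In the first panel the median moves from -1.11 under TMM scaling to -0.30 with library totals and 0.02 with chloroplast totals, while the spread around it keeps its shape.

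In rdr6-11 the chloroplast genes were also lower than in Col-0 under TMM scaling. Of the 129 genes 71 were lower (15.3% of all genes tested) and 6 higher (21.3% of all genes), with a median log2 change of -0.46 against -0.01 over all genes. Nuclear tRNA genes were lower too, 462 of 568, with a median of -0.80. With library totals 21 were lower (6.03% of all genes) and 20 higher (32.7% of all genes), around a median of 0.01. Within the set 14 were lower (3.44% of all genes) and 28 higher (35.7% of all genes), around a median of 0.12. Because ATCG00960 held more of the set in rdr6-11, leaving it out of the chloroplast total moved these counts to 5 lower (1.04% of all genes) and 55 higher (42.6% of all genes), and 55 of 129 is the background share.

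Under all 3 scalings 6 genes were higher in rdr6-11 (21.3% of all genes met this rule) and 14 lower (3.44% of all genes). ATCG00840 rose again, to counts of 663, 748 and 748, or 131 ± 8.10 (SD, n = 3) per 100000 chloroplast counts. Its log2 change from Col-0 was 0.57 ± 0.10 (SE) under TMM scaling (edgeR adjusted p = 1.18e-05) and 1.15 ± 0.10 within the set (edgeR adjusted p = 4.7e-12). ATCG00870 went from 496, 458 and 509 in Col-0 to 932, 940 and 918 in rdr6-11, a log2 change of 0.43 ± 0.09 under TMM scaling (edgeR adjusted p = 0.000157) and 1.01 ± 0.08 within the set (edgeR adjusted p = 1.88e-12). Both genes were higher in every rdr6-11 library than in every Col-0 library.

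ATCG00110 fell in rdr6-11 as well, to counts of 89, 108 and 81. The log2 change from Col-0 was -1.19 ± 0.14 (SE) under TMM scaling (edgeR adjusted p = 3.19e-10) and -0.61 ± 0.14 within the set (edgeR adjusted p = 0.000473). ATCG01140 went from 88, 76 and 86 in Col-0 to 56, 48 and 59, with log2 changes of -1.12 ± 0.16 (edgeR adjusted p = 1.19e-07) and -0.54 ± 0.16 within the set (edgeR adjusted p = 0.00698). The latter was not called with ATCG00960 left out of the chloroplast total (edgeR adjusted p = 0.124). The double mutant and rdr6-11 were both compared with the same Col-0 libraries, so their lists of genes are not independent.

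ATCG00960 itself rose within the set in rdr6-11, with a log2 change of 0.53 ± 0.05 (SE; edgeR adjusted p = 3.31e-10), and relative to library totals, with 0.42 ± 0.06 (edgeR adjusted p = 3.5e-07). Under TMM scaling its log2 change was -0.05 (edgeR adjusted p = 0.571). ATCG01170, ATCG01160 and ATCG00970 rose within the set by 0.57, 0.32 and 0.13. ATCG00920, ATCG01210, ATCG01180, ATCG00950 and ATCG00490 fell within the set by 0.35, 0.34, 0.31, 0.24 and 0.22, and ATCG00020 was not called, at 0.02.

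The effect of the decay mutations in rdr6-11 was taken from the triple mutant. Between the triple mutant and rdr6-11, under TMM scaling 29 genes were higher (20.4% of all genes tested) and 13 lower (25.2% of all genes), with a median of 0.13 against 0.12 over all genes. With library totals 25 were higher (16.3% of all genes) and 16 lower (27.3% of all genes). Within the set 13 were higher (13% of all genes) and 18 lower (29.7% of all genes). With ATCG00960 left out of the chloroplast total, 4 were higher (6.29% of all genes) and 61 lower (38.2% of all genes). The share called lower was thus below the background under the first 3 scalings and above it under the last. Under all 3 scalings 13 were higher (13% of all genes) and 13 lower (25.2% of all genes).

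ATCG00370 showed the largest rise among the genes named by rule, with counts of 385, 354 and 383 in the triple mutant against 228, 229 and 202 in rdr6-11. The log2 change was 0.86 ± 0.11 (SE) under TMM scaling (edgeR adjusted p = 3.37e-09) and 0.69 ± 0.10 within the set (edgeR adjusted p = 1.9e-06). ATCG01260 rose from 171, 181 and 139 to 231, 260 and 268, with log2 changes of 0.72 ± 0.11 (edgeR adjusted p = 1.75e-06) and 0.55 ± 0.11 within the set (edgeR adjusted p = 0.000195). The rise of ATCG01260 was not called with ATCG00960 left out of the chloroplast total (edgeR adjusted p = 0.0538).

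ATCG00870 fell from 932, 940 and 918 counts in rdr6-11 to 467, 520 and 502 in the triple mutant, a log2 change of -0.81 ± 0.09 (SE) under TMM scaling (edgeR adjusted p = 2.98e-10). ATCG00090 went from 5718, 5158 and 4860 to 2596, 3065 and 3192, a log2 change of -0.74 ± 0.09 (edgeR adjusted p = 1.45e-09). Groups did not overlap for either gene. ATCG00960 fell by 0.80 ± 0.05 within the set (edgeR adjusted p = 1.56e-14) and by 0.63 ± 0.06 under TMM scaling (edgeR adjusted p = 2.09e-11).

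Losing RDR6 in the double mutant raised most chloroplast genes relative to the other genes tested. Under TMM scaling 97 of 129 genes were higher in the triple mutant than in the double mutant (14.4% of all genes tested) and 8 lower (27% of all genes), with a median log2 change of 0.66 against -0.21 over all genes. With library totals 50 were higher (3.8% of all genes) and 15 lower (48.1% of all genes), around a median of 0.23. Within the set 14 were higher (1.03% of all genes) and 28 lower (62.1% of all genes), around a median of -0.06. The chloroplast total without ATCG00960 gave 10 higher (0.623% of all genes) and 33 lower (64.9% of all genes). In the authors' deposited table, 83 of the 133 genes are lower in the double mutant than in the triple mutant (1.96% of all genes it tests) and 6 are higher (3.08% of all genes it tests).

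Under all 3 scalings 14 genes were higher in the triple mutant than in the double mutant (1.03% of all genes met this rule) and 8 lower (27% of all genes). ATCG00370 had counts of 203, 179 and 210 in the double mutant against 385, 354 and 383 in the triple mutant, a log2 change of 1.36 ± 0.12 (SE) under TMM scaling (edgeR adjusted p = 5.6e-14) and 0.64 ± 0.11 within the set (edgeR adjusted p = 1.07e-05). ATCG01260 rose by 1.32 ± 0.13 under TMM scaling (edgeR adjusted p = 2.56e-12) and by 0.60 ± 0.13 within the set (edgeR adjusted p = 0.000101). In both genes every triple mutant library exceeded every double mutant library.

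ATCG00700 fell from 190, 226 and 229 counts in the double mutant to 74, 88 and 85 in the triple mutant, a log2 change of -0.95 ± 0.14 (SE) under TMM scaling (edgeR adjusted p = 3.21e-07) and -1.67 ± 0.14 within the set (edgeR adjusted p = 3.46e-12). ATCG00090 fell from 5715, 6159 and 8063 counts to 2596, 3065 and 3192, with log2 changes of -0.79 ± 0.10 (edgeR adjusted p = 1.8e-09) and -1.50 ± 0.08 within the set (edgeR adjusted p = 3.15e-17). Without replicate 3 of the double mutant, which leaves 1 sample in that group, the TMM change of ATCG00090 was -0.35. Per 100000 chloroplast counts ATCG00090 stood at 591 ± 50.6 (SD, n = 3) in Col-0, 1442 ± 178 (SD, n = 2) in the double mutant, 960 ± 98.5 (SD, n = 3) in rdr6-11 and 510 ± 47.6 (SD, n = 3) in the triple mutant. Col-0 and the triple mutant overlapped, and both single comparisons with Col-0 were uncalled for ATCG00090 under TMM scaling (0.17, edgeR adjusted p = 0.136 and 0.12, edgeR adjusted p = 0.305) and called within the set (1.29 and 0.70).

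**Figure D3:**
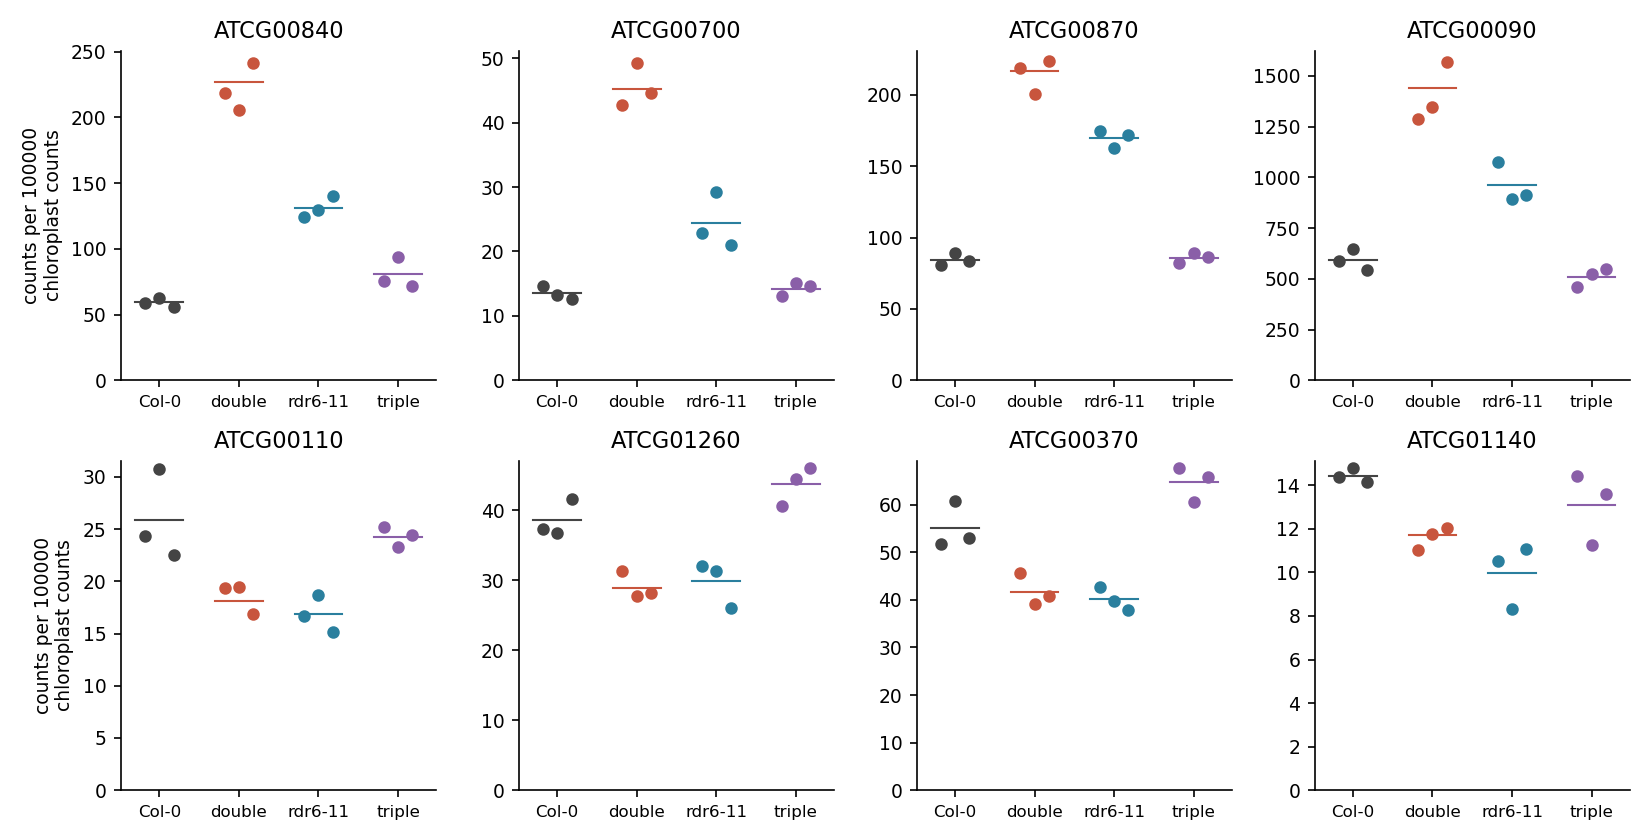
Counts per 100000 chloroplast counts for 8 named genes, 1 point per library in the order of replicates 1 to 3, with the group mean as a line, double mutant replicates 1 and 2 counted as 1 sample; double and triple stand for the mutants ein5-1 ski2-3 and rdr6-11 ein5-1 ski2-3. In the upper row the double mutant is highest and rdr6-11 second (ATCG00840 at 227 and 131 on average), and in the lower row the means of both lie below those of Col-0 and the triple mutant.

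The interaction tests whether losing RDR6 had the same effect in the double mutant as in wild type. Under TMM scaling 104 of 129 genes had a positive interaction (19.8% of all genes tested) and 7 a negative one (31.7% of all genes), with a median of 1.15 against -0.31 over all genes. With library totals 45 were positive (4.59% of all genes) and 21 negative (47.5% of all genes). Within the set 18 were positive (1.01% of all genes) and 33 negative (58.9% of all genes), and with ATCG00960 left out of that total 9 were positive (0.416% of all genes) and 56 negative (67.7% of all genes). Under all 3 scalings 18 were positive (1.01% of all genes) and 7 negative (31.7% of all genes).

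The genes with the strongest positive interaction by the naming rule were ATCG00370, at 2.39 ± 0.16 (SE) under TMM scaling (edgeR adjusted p = 7.07e-18), and ATCG00110, at 2.31 ± 0.20 (edgeR adjusted p = 7.18e-14). Within the set they stood at 1.09 ± 0.15 (edgeR adjusted p = 1.48e-07) for ATCG00370 and 1.01 ± 0.20 (edgeR adjusted p = 5.86e-05) for ATCG00110. Negative interactions were led by ATCG00840, at -1.35 ± 0.15 under TMM scaling (edgeR adjusted p = 1.32e-10) and -2.64 ± 0.14 within the set (edgeR adjusted p = 1.26e-17). ATCG00700 followed with -1.22 ± 0.20 (edgeR adjusted p = 1.7e-06) and -2.52 ± 0.20 within the set (edgeR adjusted p = 5.18e-13). ATCG00840 and ATCG00700 were thus raised by RDR6 loss in wild type within the set and lowered by it in the double mutant.

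Of the 10 highest genes 5 had a positive interaction within the set and 5 a negative one. The near-identical ATCG00920 and ATCG01210 are counted separately here, so the positive genes hold 1 signal more than once. ATCG01180, ATCG00920, ATCG01210, ATCG00490 and ATCG00950 were positive, between 0.42 and 0.52. ATCG00020, ATCG00970, ATCG01160, ATCG00960 and ATCG01170 were negative, at -0.25, -0.57, -0.65, -0.79 and -1.60. ATCG01180 illustrates the former, with 19.3%, 19.5% and 19.0% of chloroplast counts in Col-0, 17.1%, 17.2% and 18.3% in the double mutant, 20.2%, 20.7% and 20.4% in the triple mutant, and 16.0%, 15.9% and 14.6% in rdr6-11. ATCG01170 illustrates the latter, at 1.01% of chloroplast counts on average in Col-0, 1.97% in the double mutant, 1.49% in rdr6-11 and 0.958% in the triple mutant.

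Genes that moved one way on decay loss with RDR6 intact tended to move the other way on decay loss in rdr6-11. The change from Col-0 to the double mutant and the change from rdr6-11 to the triple mutant use no sample in common. Across 119 genes, with each of the 10 near-identical pairs taken once, these changes had a Pearson correlation of -0.58 and a Spearman correlation of -0.56 within the set. Of 21 genes called in both, 20 moved in opposite directions and 1 in the same one. The points are genes of the same libraries and are not independent replicates.

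The same 4 genotypes can be paired in another way, which is a second view of the same pattern and not an independent result. The change from Col-0 to rdr6-11 and the change from the double to the triple mutant have no sample in common with each other. Their Pearson correlation was -0.56 and their Spearman correlation -0.51 across the same 119 genes within the set, and all 23 genes called in both moved in opposite directions. Under TMM scaling the Pearson correlations were -0.58 and -0.56, since a change of scaling shifts all genes together.

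**Figure D4:**
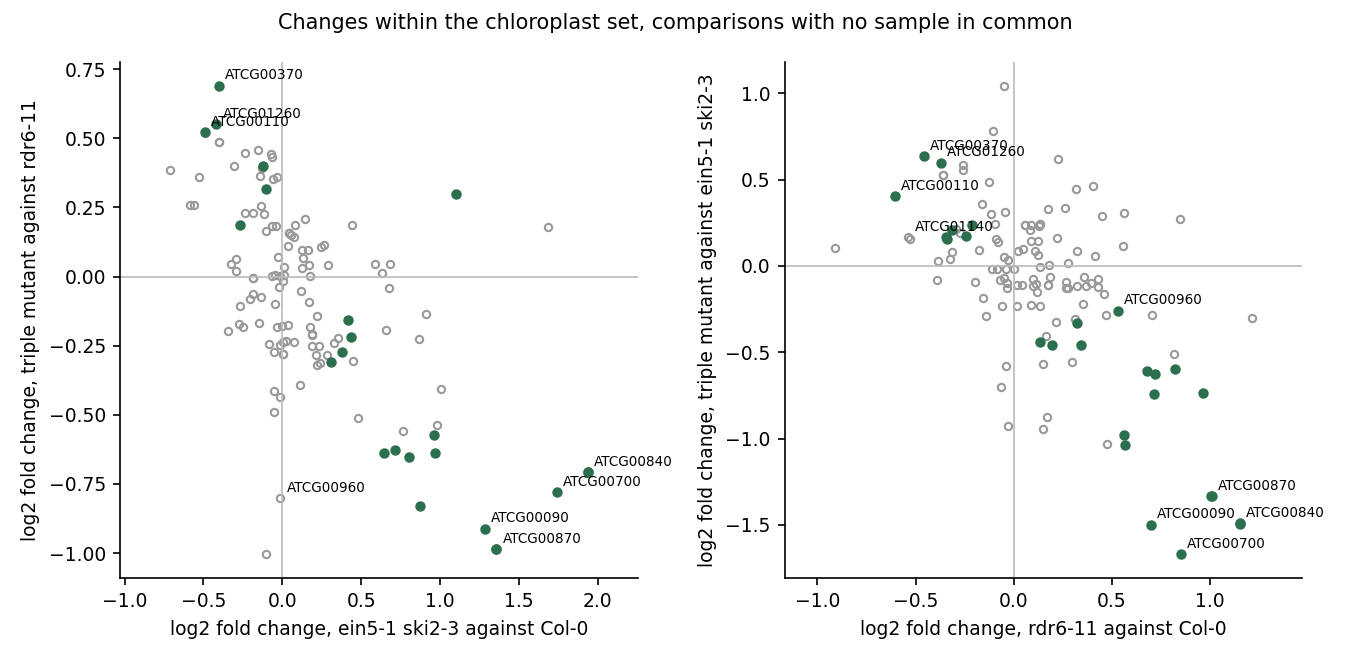
Each point is 1 tested chloroplast gene, with log2 fold changes within the chloroplast set on both axes; filled points were called in both comparisons. Decay loss in wild type is set against decay loss in rdr6-11 on the left, and RDR6 loss in wild type against RDR6 loss in the double mutant on the right. ATCG00840, ATCG00700, ATCG00870 and ATCG00090 lie at the lower right of both panels, and ATCG00370, ATCG00110 and ATCG01260 at the upper left.

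The 6 genes with a described product had few counts, with means from 20.7 for ATCG00660 to 104 for ATCG01310. In the double mutant under TMM scaling, 107 of the 129 tested chloroplast genes and 18.8% of all genes tested were lower than in Col-0. Of the 6 described genes 4 were lower. The log2 changes were -1.32 for ATCG01310 (ribosomal protein L2), -1.12 for ATCG00430, -1.06 for ATCG00670 (CLP P) and -0.90 for ATCG00530. In that order the edgeR adjusted p was 3.03e-10, 3.51e-06, 3.14e-07 and 9.15e-05. Within the set none of these 4 was called, with changes of -0.18, 0.01, 0.08 and 0.24. ATCG00670 had 80, 59 and 82 counts in Col-0 against 53, 68 and 69 in the double mutant, and the groups overlapped.

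The other described genes, ATCG00750 (ribosomal protein S11) and ATCG00660 (ribosomal protein L20), were uncalled under TMM scaling in the double mutant and higher within the set. The counts of ATCG00750 were 29, 24 and 19 in Col-0, 46, 31 and 42 in the double mutant, 27, 28 and 41 in the triple mutant, and 36, 50 and 35 in rdr6-11. Within the set ATCG00750 was higher than in Col-0 in the double mutant (log2 change 1.01, edgeR adjusted p = 0.00028) and in rdr6-11 (0.82, edgeR adjusted p = 0.00363), with no overlap in counts in either. Under TMM scaling the changes were -0.13 (edgeR adjusted p = 0.678) and 0.24 (edgeR adjusted p = 0.433). ATCG00660 had 21, 16 and 18 counts in Col-0 and 22, 14 and 34 in the double mutant, which overlapped, with a log2 change of 0.66 within the set (edgeR adjusted p = 0.0278) and -0.48 under TMM scaling (edgeR adjusted p = 0.148).

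The mitochondrial genome is the other organelle genome of the cell. Under TMM scaling 38 of its 74 tested genes were lower in the double mutant than in Col-0 (18.8% of all genes tested). Only 1 was higher (30.5% of all genes), and the median log2 change was -0.57. Their share of the library was 0.764% to 0.788% in Col-0 and 0.730% to 0.777% in the double mutant, which overlapped. Scaled to chloroplast totals, 45 of the 74 mitochondrial genes were higher and 0 lower, where the chloroplast genes themselves had a median of 0.02. Of all genes tested, 75.7% were higher and 0.679% lower under that scaling, so the share of mitochondrial genes called higher was below the background. The difference between the organelles was not tested.

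Small RNA of nuclear genes for chloroplast RNA metabolism was sparse. All 16 genes of a list of chloroplast nucleases, RNA-binding proteins, the phage-type plastid polymerase and sigma factors were in the table, with 91 to 151 summed counts per library, and 4 passed the filter. In the double mutant 1 of these was lower and 0 higher than in Col-0 under TMM scaling; in rdr6-11 0 were called, and from the double to the triple mutant 2 were higher. These counts are small RNA reads of the genes and not their mRNA levels.

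Markers of green leaf cells were covered in all libraries. The 5 markers, among them RBCS1A and CAB3, had summed counts of 1510 to 1704 in Col-0, 1505 to 1746 in the double mutant, 1832 to 1974 in the triple mutant and 1351 to 1643 in rdr6-11. Under TMM scaling they moved with the chloroplast genes in all comparisons but 1. In the double mutant 4 of the 5 were lower and 1 higher than in Col-0 (median log2 change -0.96). In rdr6-11 4 were lower than in Col-0 (median -0.61), and 4 were higher in the triple than in the double mutant (median 0.67). Between the triple mutant and rdr6-11 all 5 rose (median 0.56), where the chloroplast genes had a median of 0.13 against 0.12 over all genes. With library totals the double mutant had 2 lower and 2 higher than Col-0, and rdr6-11 had 0 called. The triple mutant then had 4 higher than rdr6-11 (median 0.47, chloroplast genes 0.04), and 2 higher and 1 lower than the double mutant. The 5 root markers in the table had 2 to 3 summed counts in Col-0, 38 to 49 in the double mutant, 16 to 23 in the triple mutant and 4 to 7 in rdr6-11. RHD6 was at 0 in all libraries and PLT2 in all libraries of Col-0 and the triple mutant; most root marker counts came from SHR and SCR, which leaves also express. The part of these cells in the changes of the chloroplast genes was not tested. The floral markers had 0 to 3 summed counts in any library.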

How the data were processed

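Per the file headers, each of the 12 libraries has 1 column of raw read counts by gene in the authors' table. Further columns give the authors' fold changes, which are ratios of group means, and the authors' adjusted p-values for the double mutant against Col-0 and against the triple mutant, per the file headers. Tools named in the submitters' processing notes, without roles, are DESeq, Bowtie2, Bowtie and CASAVA 1.8.2, and the build named there is TAIR10. Read length, strand and the treatment of reads with several matches are not given in the sources used here, so a gene's count pools fragments of longer RNAs and siRNAs, and reads of repeated genes may stand in the total more than once. Library totals and the chloroplast counts behind each value are given above; p-values measure the spread between libraries, which the series' design text calls biological replicates.

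Counts were tested with edgeR 4.0.16 in R 4.3.3 (quasi-likelihood F test, 2-sided) over the whole table. The low-count filter was filterByExpr (10 counts at least, 15 in total), and Benjamini-Hochberg adjustment ran over all 7219 genes tested, with calls at an adjusted p under 0.05. All 4 genotypes entered 1 fit of 11 samples, with replicates 1 and 2 of ein5-1 ski2-3 summed. Shares were compared with exact permutation tests in scipy 1.17.1. The scripts were tested on simulated data. Replicate numbers did not pair libraries: none of 18 same-numbered pairs had a residual correlation over 0.1 among all tested genes, and 4 of 18 did among the chloroplast genes (highest 0.274).

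The genes, lists and tests were chosen with earlier results of these data known. Named genes were the 10 with the most counts, the 6 with a described product and, per comparison, up to 2 called in each direction with the largest TMM log2 change among those with a mean of at least 50 counts and the same sign with library totals. The rule allowed up to 6 per direction and a member of each functional group; identifiers were not paired with names, so the groups could not be formed and fewer were named. Genes named outside the rule, for being outside a filter or in a pair, were chosen after their values were seen. Alternatives were other scalings, no filter, 12 separate libraries, a replicate block, DESeq2 1.42.0, another denominator and leaving out each library. No sequences or coordinates are given because no identifier was tied to a position.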

Additional observations from a re-analysis of the deposited data

Results flagged for a closer look

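In 5 named chloroplast genes the effect of losing RDR6 differed between the double mutant and wild type by the interaction in the edgeR fit with TMM scaling. ATCG00370, ATCG00110, ATCG00840 and ATCG00700 were named for their large called interactions, and ATCG00960 is listed because it was called. That all 5 were called was thus fixed by the choice. Of the 129 chloroplast genes tested, 104 had a positive interaction (19.8% of all genes tested) and 7 a negative one (31.7% of all genes). The log2 interaction was 2.39 for ATCG00370 and 2.31 for ATCG00110, with RDR6 loss lowering both genes in wild type (-1.04 and -1.19) and raising both in the double mutant (1.36 and 1.13). It was -1.35 for ATCG00840 and -1.22 for ATCG00700. ATCG00840 went up on RDR6 loss in wild type (0.57) and down in the double mutant (-0.78), and ATCG00700 had changes of 0.27 (not called, edgeR adjusted p = 0.136) and -0.95. These 4 interactions had the same sign under TMM scaling, library totals and chloroplast totals.

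The interaction of ATCG00960 was 0.51 under TMM scaling (edgeR adjusted p = 1.91e-05), -0.39 with library totals (edgeR adjusted p = 0.000214) and -0.79 within the chloroplast set (edgeR adjusted p = 1.35e-10). Its direction therefore depends on the scaling.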

How the results depend on the processing

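Scaling moved the counts of called chloroplast genes most. With TMM scaling the higher and lower counts were 5 and 107 for ein5-1 ski2-3 against Col-0, 6 and 71 for rdr6-11 against Col-0, 29 and 13 for the triple mutant against rdr6-11, 97 and 8 for the triple against the double mutant, and 104 and 7 for the interaction. In the same order, library totals gave 18 and 52, 20 and 21, 25 and 16, 50 and 15, and 45 and 21, and chloroplast totals gave 31 and 12, 28 and 14, 13 and 18, 14 and 28, and 18 and 33. Chloroplast totals without ATCG00960, an alternative chosen after seeing the data, gave 32 and 14, 55 and 5, 4 and 61, 10 and 33, and 9 and 56. The 5 higher genes of the first comparison were 3 with RLE size factors, with 12 separate libraries, with the replicate block and with DESeq2. With no count filter the 71 became 46 and the 29 became 11; DESeq2 gave 16 in place of the 29. The cause of these last changes was not tested.

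Single genes reversed in some fits. For ein5-1 ski2-3 against Col-0 the log2 change with chloroplast totals, with and without ATCG00960, was 0.0141 and 0.0182 for ATCG00430, 0.24 and 0.24 for ATCG00530, 0.66 and 0.67 for ATCG00660, 0.0762 and 0.0788 for ATCG00670, and 1.01 and 1.01 for ATCG00750. With library totals ATCG00660 was 0.34 and ATCG00750 was 0.69. For rdr6-11 against Col-0, ATCG00960 was 0.42 with library totals, 0.53 and 0.75 with the chloroplast totals, 0.0733 with no count filter and 0.0210 with DESeq2. For the triple against the double mutant ATCG00960 was -0.26 and -0.33 with the chloroplast totals, and its interaction was -0.39 with library totals and -0.79 and -1.08 with the chloroplast totals.

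Leaving out 1 library at a time moved the 5 higher genes of ein5-1 ski2-3 against Col-0 to between 2 and 5, with 2 without replicate 3 of ein5-1 ski2-3 and 3 without any 1 of most other libraries, controls included; the other counts stayed within 1.5 times. The range for ATCG00750 in that comparison was -0.40 to 0.0206, and for ATCG00960 in rdr6-11 against Col-0 it was -0.12 to 0.0149. The differences in share kept their sign in all settings: leaving out libraries gave -4.56 to -4.31 points for ein5-1 ski2-3 and -1.83 to -1.57 points for rdr6-11 against Col-0.

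The replicate block gave 3 and 110, 6 and 74, 29 and 13, 100 and 8, and 104 and 7 called genes over the 5 comparisons; the numbers share only a label, with residual correlations of same-numbered libraries between -0.0957 and 0.0402 over all genes tested and between -0.122 and 0.274 over the chloroplast genes, where 4 of 18 pairs were over 0.1. Exact tests of shares cannot pass the threshold at these group sizes, so they say nothing about stability. Genes under about 50 counts carry wide counting error, among them the described genes ATCG00660 and ATCG00750 (means of 20.67 and 34.0). The other described genes had means from 52.33 to 104.25.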
